A study of Mus musculus with 36 samples.

Results

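The genes described here mark the segments of the nephron beyond the proximal tubule. They are 10 genes of the 78239 features counted in each library, taken by symbol from a fixed list of 3 segments. The thick ascending limb of the loop of Henle is represented by *Umod*, *Slc12a1* and *Kcnj1*, the distal convoluted tubule by *Slc12a3*, *Trpm6* and *Calb1*, and the collecting duct by *Aqp2*, *Aqp3*, *Avpr2* and *Scnn1a*. All 10 symbols matched 1 Ensembl gene each.

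Filtrate that leaves the proximal tubule passes down and up the loop of Henle, then through the distal convoluted tubule and the collecting duct. The thick ascending limb reabsorbs sodium, potassium and chloride but no water and so builds the salt gradient of the medulla. The distal convoluted tubule fine-tunes sodium chloride, magnesium and calcium, and principal cells of the collecting duct reabsorb water under vasopressin and sodium under aldosterone. Vasopressin binds its receptor V2R (*Avpr2*) on principal cells, raises cyclic AMP, moves aquaporin-2 (*Aqp2*) to the apical membrane and promotes its transcription, and water leaves the cell through aquaporin-3 (*Aqp3*) on the other side.

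The samples were heart, kidney and liver tissue of wild-type male C57BL/6NCrl mice, an inbred substrain, aged 8, 10 or 12 weeks. Each of the 9 groups of tissue and age had 4 libraries, described as biological replicates, which gave 12 kidney libraries and 36 libraries in all. No group received an experimental treatment, and mice of every age were given ketamine and xylazine before blood and organs were taken. The protocol names no separation of kidney cortex from medulla, and in these bulk libraries fewer cells of a type and less RNA per cell cannot be told apart.

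Kidney libraries held 21323021 to 32670858 read pairs counted on genes, heart libraries 21743131 to 29791297 and liver libraries 21031599 to 33637390. Levels are given as CPM, that is read pairs relative to all counted pairs of the library, scaled with edgeR's TMM factors. They compare libraries, not genes of different length. The factors were found within each tissue, so ratios of CPM between tissues are approximate. In kidney, a summed list of 8 proximal tubule markers lay between 10735 and 13083 CPM, against 1.29 to 5.29 CPM in heart and 9.75 to 23.2 CPM in liver, so the tissue labels held for these markers. Kidney libraries also carried RNA of a brown fat list, from 4.6 to 54.8 CPM summed, with *Ucp1* at a median of 0.367 CPM and up to 21.9 CPM in a single library. Of the adrenal cortex list, *Cyp11b2* and *Cyp21a1* had no pair in any kidney library, *Cyp11b1* reached at most 0.0317 CPM, and *Star*, listed there, lay between 4.31 and 5.69 CPM.

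Counting decided how much of 4 of the genes could be seen at all. The libraries carry no strand information, with 49.8% to 50.2% of strand-assigned pairs on the first strand, and the unstranded count leaves out every pair that lies on 2 genes. Summing both strand columns keeps pairs that lie on 2 genes of opposite strands. In kidney, the unstranded count held 57.3% of the pairs so found for *Umod*, 28.7% for *Aqp2*, 88.2% for *Scnn1a* and 0.531% for *Avpr2*, and at least 99.98% for each of the other 6 genes. For *Aqp2* the share ranged from 25% to 33.7% over the 12 kidney libraries. Its mean was 27.1% in the 8-week libraries, 30.0% in those of 10 weeks and 29.3% in those of 12 weeks.

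Each of the 4 genes shares exon bases with a gene of the opposite strand in the GRCm39 annotation. *Umod* (ENSMUSG00000030963, chr7:119061934-119078505, reverse strand) shares 539 exon bases with the long noncoding RNA gene *Gm44588*, and 506364 kidney pairs were left out of *Umod* and 506329 out of *Gm44588*. *Aqp2* (ENSMUSG00000023013, chr15:99476936-99485016, forward strand) shares 665 exon bases with the long noncoding RNA gene *Gm34765*, and lost 66919 pairs. *Scnn1a* (ENSMUSG00000030340, chr6:125297622-125321906, forward strand) shares 296 exon bases with *Gm66744* and lost 6374 pairs. *Avpr2* (ENSMUSG00000031390, chrX:72935708-72939108, forward strand) shares 2347 bases, 81.3% of its exon length, with the protein-coding gene *Arhgap4*, and lost 7312 of 7351 pairs.

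Without strand, a pair on shared exon bases cannot be given to either gene, but the density of pairs can be set beside that of the exons each gene has alone. In kidney, the bases shared by *Avpr2* and *Arhgap4* held 3115 pairs per kilobase over the 12 libraries, against 226 pairs per kilobase on the exon bases of *Arhgap4* alone and 72.4 on those of *Avpr2* alone. In heart the same 3 densities were 35.8, 44.1 and 13 pairs per kilobase, and in liver they were 120, 146 and 29.7. By this measure the shared bases stood far above the exons of *Arhgap4* alone in kidney and below them in heart and liver. Pairs that only partly lie on shared bases are counted there, which raises the shared density and lowers the others. The bases shared by *Umod* and *Gm44588* held 939451 pairs per kilobase in kidney, against 305184 on the exon bases of *Umod* alone. The bases shared by *Aqp2* and *Gm34765* held 100630 pairs per kilobase in kidney, against 349.9 on the exon bases of *Gm34765* alone and 8075 on those of *Aqp2* alone.

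**Figure D1:**
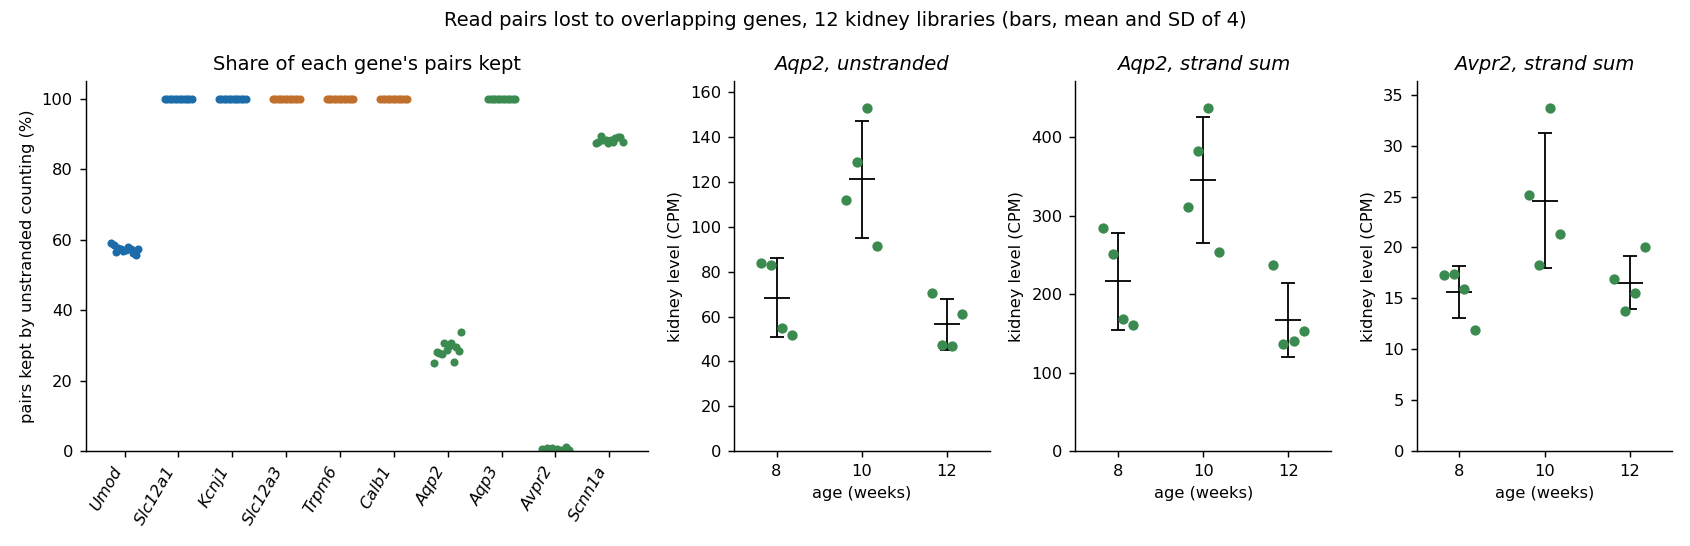
The left panel plots, for each gene, the percentage of its read pairs (summed over both strand columns) that the unstranded count kept, with 1 point per kidney library, and *Avpr2* stays at or under 1.13% and *Aqp2* between 25% and 33.7%. The other panels plot kidney levels in CPM against age in weeks, 1 point per library with the mean and SD of 4 libraries, for *Aqp2* in the unstranded counts and for *Aqp2* and *Avpr2* in the summed strand columns, where the 10-week mean is highest in each.

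Levels of different genes were compared per kilobase of the canonical transcript, from the summed strand columns and over the 12 kidney libraries. *Umod*, which encodes uromodulin, a protein that the thick ascending limb secretes into the urine, led with 1162 ± 79.0 CPM per kilobase (SD, n = 12). *Slc12a1*, the Na-K-2Cl cotransporter NKCC2, followed with 317 ± 26.6 and *Slc12a3*, the Na-Cl cotransporter NCC, with 197 ± 23.7. None of these 3 overlapped the next gene in the order. *Calb1* had 103 ± 20.3, *Kcnj1* 79.9 ± 4.21, *Aqp2* 60.7 ± 24.5, *Aqp3* 47.7 ± 4.46 and *Scnn1a* 39.8 ± 4.83 CPM per kilobase, and each of these neighbours overlapped. *Avpr2*, with 6.56 ± 2.00, lay below *Scnn1a* without overlap and above *Trpm6*, with 4.00 ± 0.572, with overlap. In the unstranded counts *Aqp2* fell behind *Aqp3* and *Scnn1a*, and *Avpr2* came last.

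The first question put to these data is whether expression of the segment genes differed between 8, 10 and 12 weeks in kidney. Of the 10 genes, 9 passed the study's filter on low counts, and *Avpr2* did not, with 1 to 6 unstranded pairs per library and 39 pairs in all. From 8 to 12 weeks, none of the 9 was called by edgeR's quasi-likelihood test at an adjusted p under 0.05, where 0.0567% of the 17649 genes tested were called, and none separated the ages without overlap, where 6.61% of genes did. At 10 against 8 weeks edgeR called none, against 0.929% of genes. At 12 against 10 weeks 1 of the 9, *Aqp2*, was called, against 0.482% of genes and 0.346% called lower. In the test of any age difference *Aqp2* was again the single gene called, against 0.816% of genes. At an unadjusted p under 0.05, 1 of the 9 passed at 12 against 8 weeks (11.7% of genes), 2 passed at 10 against 8 weeks (16.5%) and 1 passed at 12 against 10 weeks (16.4%). The median log2 fold change of the 9 genes was -0.03 at 12 against 8 weeks, 0.00 at 10 against 8 weeks and -0.05 at 12 against 10 weeks, beside 0.00 over all genes in each comparison.

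**Figure D2:**
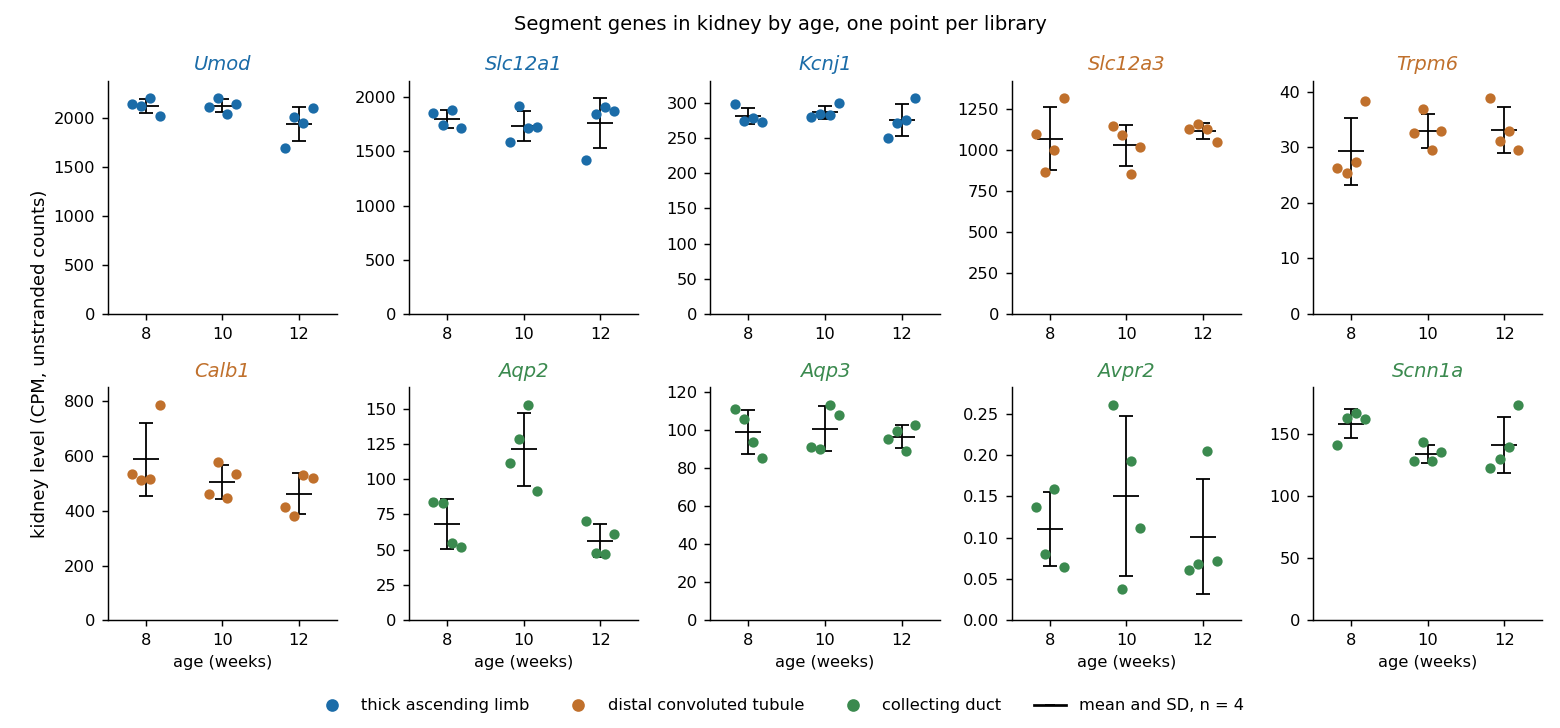
Kidney levels in CPM (unstranded counts) of the 10 genes against age in weeks, 1 point per library, with the mean and SD of 4 libraries as black bars and colours for the 3 segments. The 4 *Aqp2* libraries at 10 weeks, from 91.4 to 153 CPM, lie above all others, and 1 library at 8 weeks stands high for *Trpm6* and *Calb1*.

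The thick ascending limb genes varied little. *Umod* was counted at 2142, 2118, 2195 and 2018 CPM in the 4 libraries at 8 weeks, at 2108, 2196, 2035 and 2133 CPM at 10 weeks and at 1686, 2005, 1946 and 2097 CPM at 12 weeks. The library of replicate 1 at 12 weeks lay below all others, and the rest overlapped. The change from 8 to 12 weeks was -0.13 ± 0.07 (log2, SE, 95% interval -0.27 to 0.01, edgeR adjusted p = 0.471), and -0.07 without that library.

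*Slc12a1* (ENSMUSG00000027202, chr2:124994425-125071922, forward strand) is the target of loop diuretics. It was counted at 1854, 1739, 1884 and 1718 CPM at 8 weeks, at 1583, 1918, 1711 and 1726 CPM at 10 weeks and at 1422, 1846, 1908 and 1871 CPM at 12 weeks. The same library of replicate 1 at 12 weeks was lowest, and the groups overlapped in every comparison. The log2 change from 8 to 12 weeks was -0.03 ± 0.09 (95% interval -0.22 to 0.16) and became 0.06 without that library.

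*Kcnj1* (ENSMUSG00000041248, chr9:32283789-32310493, forward strand) encodes the potassium channel ROMK, which returns potassium to the lumen for the cotransporter. Its 12 libraries ranged from 250.2 to 306 CPM, with means of 281 ± 12.0, 286 ± 9.23 and 276 ± 23.1 CPM at 8, 10 and 12 weeks (SD, n = 4). Its intervals were the narrowest of the 9 genes, and that of the change from 8 to 12 weeks ran from -0.16 to 0.10 on the log2 scale, from 0.898-fold to 1.07-fold.

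In the distal convoluted tubule, *Slc12a3* (ENSMUSG00000031766, chr8:95055829-95094170, forward strand), the target of thiazides, was counted at 1098, 866, 1002 and 1316 CPM at 8 weeks, at 1149, 1090.3, 857 and 1019 CPM at 10 weeks and at 1127, 1162, 1132 and 1048 CPM at 12 weeks. The groups overlapped throughout, and the libraries at 12 weeks lay closest together. Its log2 change from 8 to 12 weeks was 0.06 ± 0.11 (95% interval -0.18 to 0.30).

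*Trpm6* (ENSMUSG00000024727, chr19:18727089-18869875, forward strand), the apical magnesium channel, was the lowest of the 9 at 25.4 to 38.8 CPM, with means of 29.3 ± 6.05, 32.9 ± 3.04 and 33.1 ± 4.07 CPM at 8, 10 and 12 weeks (SD, n = 4). At 8 weeks, replicate 4 had 38.3 CPM and the other 3 libraries 25.4 to 27.3 CPM. The log2 change from 8 to 12 weeks was 0.17 ± 0.12 (95% interval -0.09 to 0.44), and 0.33 without that library (edgeR adjusted p = 0.449).

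*Calb1* (ENSMUSG00000028222, chr4:15881155-15908085, forward strand) encodes calbindin-D28k, which carries calcium through distal cells. It was counted at 535, 511, 517 and 787 CPM at 8 weeks, at 459, 577, 447 and 532 CPM at 10 weeks and at 414, 382, 532 and 521 CPM at 12 weeks. Replicate 4 at 8 weeks was again the highest, and the groups overlapped. The log2 change from 8 to 12 weeks was -0.35 ± 0.15 (95% interval -0.66 to -0.03, edgeR adjusted p = 0.378). Without replicate 4 at 8 weeks it was -0.17, so that 1 library carried much of the difference.

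Of the genes tested, *Aqp2* of the collecting duct had the largest change at 10 against 8 and at 12 against 10 weeks. At 12 against 8 weeks that of *Calb1* was larger. *Aqp2*, the vasopressin-regulated water channel, was counted at 84.0, 83.1, 54.7 and 51.9 CPM at 8 weeks, at 112, 129, 153 and 91.4 CPM at 10 weeks and at 70.6, 47.5, 47.0 and 61.1 CPM at 12 weeks. All 4 libraries at 10 weeks lay above all 8 others. The 8-week and 12-week libraries overlapped.

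From 10 to 12 weeks, *Aqp2* fell by 1.10 ± 0.19 on the log2 scale (95% interval -1.51 to -0.69), to 0.467-fold, with an edgeR adjusted p of 0.0239, and the groups did not overlap, as did 4.39% of genes in that direction. From 8 to 10 weeks it was 0.83 ± 0.19 higher (95% interval 0.42 to 1.24, 1.78-fold), without overlap (5.02% of genes in that direction), at an edgeR adjusted p of 0.0549, which does not pass, and with DESeq2 at 0.0152, which does. At 12 against 8 weeks the log2 change was -0.27 ± 0.19 (adjusted p = 0.625). The call at 12 against 10 weeks was lost when replicate 1, 2 or 3 at 10 weeks or replicate 2, 3 or 4 at 12 weeks was left out, with adjusted p from 0.0529 to 0.0911 and log2 changes from -1.14 to -0.97.

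In the summed strand columns *Aqp2* was counted at 284, 252, 168 and 161 CPM at 8 weeks, at 311, 383, 437 and 254 CPM at 10 weeks and at 238, 137, 141 and 154 CPM at 12 weeks. The 10-week libraries again lay above all those at 12 weeks, but their lowest lay under the highest at 8 weeks. The change from 10 to 12 weeks was -1.05 ± 0.22 (edgeR adjusted p = 0.0466, where 0.828% of 21490 genes were called) and that from 8 to 10 weeks 0.68 ± 0.22 (adjusted p = 0.142, 1.2% called). At 12 against 8 weeks 0.0651% of genes were called and none of the 10 among them. The test of any age difference gave *Aqp2* an adjusted p of 0.0574, where 1.19% of genes were called.

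*Avpr2*, the V2 vasopressin receptor, can be followed only in the summed strand columns, where its pairs cannot be told from those of *Arhgap4*. There it had 17.3, 17.4, 15.9 and 11.9 CPM at 8 weeks, 25.2, 18.3, 33.6 and 21.3 CPM at 10 weeks and 16.9, 13.8, 15.5 and 20.02 CPM at 12 weeks. The 10-week libraries lay above those at 8 weeks without overlap, as did 4.92% of genes, and overlapped those at 12 weeks. The log2 change was 0.66 ± 0.17 from 8 to 10 weeks (95% interval 0.29 to 1.03, edgeR adjusted p = 0.0809) and -0.57 ± 0.17 from 10 to 12 weeks (-0.94 to -0.20, adjusted p = 0.121), and neither was called. The replicate with the highest *Aqp2* at 10 weeks, replicate 3, also had the highest *Avpr2*.

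*Aqp3* (ENSMUSG00000028435, chr4:41092722-41098183, reverse strand) is the basolateral exit for water. Its means were 99.0 ± 11.7, 101 ± 11.8 and 96.6 ± 6.10 CPM at 8, 10 and 12 weeks (SD, n = 4), over a range of 85.2 to 113.4 CPM. Its log2 change was 0.03 ± 0.09 from 8 to 10 weeks (95% interval -0.17 to 0.22) and -0.06 ± 0.09 from 10 to 12 weeks (-0.26 to 0.14), intervals that lie outside those of *Aqp2*. The difference from *Aqp2* was not itself tested.

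*Scnn1a*, the alpha subunit of the epithelial sodium channel ENaC, was counted at 141, 162, 167 and 162 CPM at 8 weeks, at 128, 143, 128 and 136 CPM at 10 weeks and at 123, 129.97, 139 and 173 CPM at 12 weeks. Of the 8-week libraries, 3 exceeded all those at 10 weeks and the other lay within them. The log2 change was -0.24 ± 0.09 from 8 to 10 weeks (95% interval -0.44 to -0.04, edgeR adjusted p = 0.205), opposite in sign to that of *Aqp2*.

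**Figure D3:**
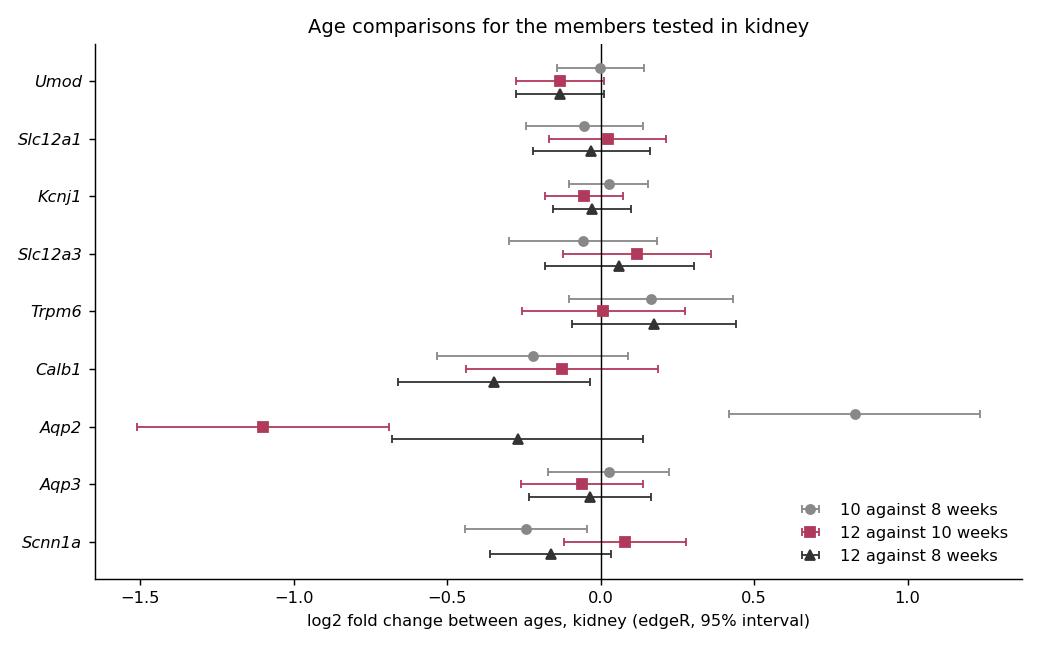
Log2 fold changes between ages in kidney (horizontal axis) for the 9 genes that passed the filter, with 95% intervals from edgeR and a marker for each of the 3 comparisons. The intervals of *Aqp2* at 10 against 8 weeks (0.42 to 1.24) and at 12 against 10 weeks (-1.51 to -0.69) lie farthest from 0, those of *Calb1* at 12 against 8 weeks and *Scnn1a* at 10 against 8 weeks end just below 0, and all others include 0.

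The upstream sequences of *Aqp2*, *Avpr2* and *Aqp3* are shown as those of the vasopressin receptor and the water channels on either side of the principal cell. They are the 250 bases before the start site in RefSeq on build GRCm38.p6, written on the strand of the gene, at chr15:99578806-99579055 (*Aqp2*, forward), chrX:73891852-73892101 (*Avpr2*, forward) and chr4:41098184-41098433 (*Aqp3*, reverse). Of the 10 genes, 8 had such a sequence there. Capitals mark matches, on either strand, to any of 3 motifs. The first, AGATAA, is bound by GATA factors. The second, TGACG, is the core of the element through which cyclic AMP acts on transcription. The third, TATAAA, is the TATA box.
Aqp2: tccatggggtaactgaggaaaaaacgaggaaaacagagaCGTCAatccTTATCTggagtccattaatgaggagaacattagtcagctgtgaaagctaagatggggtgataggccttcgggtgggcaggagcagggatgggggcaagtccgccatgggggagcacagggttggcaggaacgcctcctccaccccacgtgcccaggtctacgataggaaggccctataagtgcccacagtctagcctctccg
Avpr2: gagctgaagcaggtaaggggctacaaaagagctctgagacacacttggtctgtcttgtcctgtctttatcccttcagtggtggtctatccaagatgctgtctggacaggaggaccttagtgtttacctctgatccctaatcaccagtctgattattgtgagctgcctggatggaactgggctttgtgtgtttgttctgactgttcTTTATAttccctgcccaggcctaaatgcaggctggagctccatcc
Aqp3: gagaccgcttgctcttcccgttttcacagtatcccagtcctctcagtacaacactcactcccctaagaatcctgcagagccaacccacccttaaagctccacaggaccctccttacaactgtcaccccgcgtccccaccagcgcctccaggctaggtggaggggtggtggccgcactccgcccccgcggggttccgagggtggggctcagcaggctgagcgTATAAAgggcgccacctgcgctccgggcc

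In *Aqp2* the cyclic AMP response element core and the GATA motif both lay on the reverse strand, at positions -211 and -202 from the start site. *Aqp3* had a TATA box on the forward strand at position -29, and *Avpr2* had its letters on the reverse strand at -45. Among the 8 genes, AGATAA was found in 2 (*Aqp2* and *Slc12a3*), TGACG in 2 (*Aqp2* and *Kcnj1*) and TATAAA in 3. Over all 32851 upstream sequences of this length, 9.99% held AGATAA, 17.8% TGACG and 12.4% TATAAA. These are matches of letters in a window, without any measurement of binding.

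Other genes of the same segments were taken from 6 lists of 6 to 17 genes. Of 15 loop of Henle genes (14 tested), 17 distal convoluted tubule genes and 13 intercalated cell genes, none was called by edgeR in any comparison of kidney ages. Over all 6 lists DESeq2 called 1 gene at 12 against 8 weeks, 6 at 10 against 8 weeks and 6 at 12 against 10 weeks. Of all genes it tested it called 0.737%, 4.08% and 4.98% in these comparisons. In the list of 14 principal cell genes, 1 was called by edgeR at 10 against 8 weeks, where 0.646% of all genes were called higher. This was *Gata3*, a transcription factor of the collecting duct, at 12.4, 12.9, 12.5 and 12.6 CPM at 8 weeks, 19.9, 18.2, 17.6 and 13.7 CPM at 10 weeks and 14.2, 12.7, 14.8 and 13.3 CPM at 12 weeks. The 10-week libraries lay above those at 8 weeks, by 0.46 ± 0.10 on the log2 scale (95% interval 0.25 to 0.67, edgeR adjusted p = 0.0414). The call was lost when any of 9 libraries was left out, with adjusted p up to 0.121. It was also lost with limma-voom (adjusted p = 0.0560), the replicate block (0.0533), the first strand column (0.0945) and the 2 ages alone (0.0765).

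The median log2 change of the principal cell list was 0.15 at 10 against 8 weeks and -0.09 at 12 against 10 weeks, with 10 of 14 genes above 0 in the first and 11 of 14 below 0 in the second. The 6 medullary osmolyte and urea genes, which take up or make organic osmolytes or carry urea where the medulla is concentrated, had medians of 0.26 and -0.45 in the same comparisons, with 5 of 6 above 0 and then 5 of 6 below 0. None of the 6 was called by edgeR, with a lowest adjusted p of 0.0722 at 12 against 10 weeks. DESeq2, which called 4.98% of genes in that comparison, called *Slc6a12* (log2 change -1.40, adjusted p = 0.00132) and *Slc14a2* (-0.63, adjusted p = 0.0215). The comparisons of 10 against 8 and 12 against 10 weeks share the libraries at 10 weeks, so their signs are tied. The loop of Henle list had medians of 0.05 and -0.07 (9 of 14 above 0, then 9 of 14 below). The distal convoluted tubule list had 0.02 and -0.05 (9 of 17 above, then 11 of 17 below). The intercalated cell list had -0.08 and 0.06 (8 of 13 below, then 9 of 13 above). Over all 17649 genes, 8911 were above 0 and then 8856 below. The genes named next from these lists were chosen after their values were seen.

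*Slc6a12*, the betaine transporter, had 5.42, 6.32, 5.43 and 3.72 CPM at 8 weeks, 6.27, 5.55, 12.3 and 4.31 CPM at 10 weeks and 2.33, 2.08, 2.01 and 4.42 CPM at 12 weeks, a change of -1.40 ± 0.33 from 10 to 12 weeks (edgeR adjusted p = 0.0722). *Akr1b3*, aldose reductase, which makes sorbitol, had 186, 109.8, 356 and 95.1 CPM at 10 weeks, against 46.4 to 109 CPM at 8 weeks and 68.4 to 135 CPM at 12 weeks. *Slc14a2*, the urea transporter of the inner medullary collecting duct, had 88.8, 55.1, 121 and 78.2 CPM at 10 weeks and 51.5 to 58.2 CPM at 12 weeks. For all 3, replicate 3 at 10 weeks was the highest library, as it was for *Aqp2* and *Avpr2*. For *Slc6a6*, *Slc5a3* and *Nfat5* of the same list it was not. Its *Slc6a6*, at 493 CPM, was the lowest of the 12 kidney libraries. It had 328 CPM of *Slc5a3*, against 437 CPM in replicate 2, and 148 CPM of *Nfat5*, against 166 CPM in replicate 1. *Aqp4*, another basolateral water channel of principal cells, changed by 0.95 ± 0.27 from 8 to 10 weeks (adjusted p = 0.0974) and -0.71 ± 0.26 from 10 to 12 weeks (adjusted p = 0.197).

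The 8 proximal tubule markers summed to 11339 to 12322 CPM at 8 weeks, 10735 to 11802 CPM at 10 weeks and 11391 to 13083 CPM at 12 weeks, so the 10-week libraries reached the lowest values while *Aqp2* was highest. None of the 8 was called by edgeR in any comparison. Of the 5 stromal and smooth muscle markers, 5 were above 0 at 10 against 8 weeks (median log2 change 0.26) and 5 below 0 at 12 against 10 weeks (median -0.38), and their sums overlapped, at 97.6 to 265, 174.7 to 308 and 141 to 224 CPM at 8, 10 and 12 weeks. The brown fat list summed to medians of 6.73, 14.7 and 5.37 CPM at these ages, also with overlap. The part of these markers in the *Aqp2*, principal cell and medullary values was not tested.

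The list of 13 vasopressin and aldosterone signalling genes had medians of -0.05 at 12 against 8 weeks, -0.16 at 10 against 8 weeks and 0.06 at 12 against 10 weeks, and none was called by edgeR. The largest change in it was that of *Sgk1*, a kinase induced by aldosterone and glucocorticoids that maintains ENaC at the membrane. It had 151, 418, 461 and 510.5 CPM at 8 weeks, 209.9, 348, 178 and 146 CPM at 10 weeks and 129, 69.0, 126 and 184 CPM at 12 weeks, and changed by -1.60 ± 0.37 from 8 to 12 weeks (edgeR adjusted p = 0.154). With DESeq2 it was the single gene of the 6 lists called in that comparison (adjusted p = 0.018), where 0.737% of genes were called. *Tsc22d3*, another corticosteroid-induced gene, changed by -1.01 ± 0.27 (adjusted p = 0.216). *Zbtb16* of the same list changed little between these ages, by -0.05 ± 0.59 (edgeR adjusted p = 0.989), with means of 27.8 and 27.2 CPM. Of the 13 genes, 3 were above 0 and 10 below 0 at 12 against 8 weeks. For *Sgk1* and *Tsc22d3*, replicate 1 at 8 weeks lay below the other 3 libraries of that age. The receptor *Nr3c2* kept to 17.9 to 23.7 CPM over all ages, and the other ENaC subunits, *Scnn1b* and *Scnn1g*, ranged from 42.7 to 52.3 CPM and from 47.3 to 57.5 CPM.

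Libraries of the same age were compared for how the genes of each segment varied. The variation was described by Pearson correlations of log2 CPM after the mean of each age was removed, over the 12 kidney libraries, which share their counted total and the composition of the piece of tissue. Among 36 pairs of genes the median r was -0.08 (-0.73 to 0.86). The 9 pairs within a segment had a median of 0.59 (-0.20 to 0.86) and the 27 pairs across segments one of -0.12 (-0.73 to 0.65).

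*Umod* and *Slc12a1* varied most alike, with r = 0.86, and *Umod* and *Kcnj1* had r = 0.77. *Slc12a3* had r = 0.74 with *Trpm6* and 0.51 with *Calb1*. *Aqp3* ran against the distal convoluted tubule, with r = -0.70 with *Slc12a3* and -0.73 with *Trpm6*, and had r = 0.52 with *Aqp2*. *Scnn1a* had r = 0.51 to 0.65 with the thick ascending limb genes and 0.51 with *Calb1*, and lower values with *Aqp2* (r = -0.20) and *Aqp3* (r = -0.12).

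**Figure D4:**
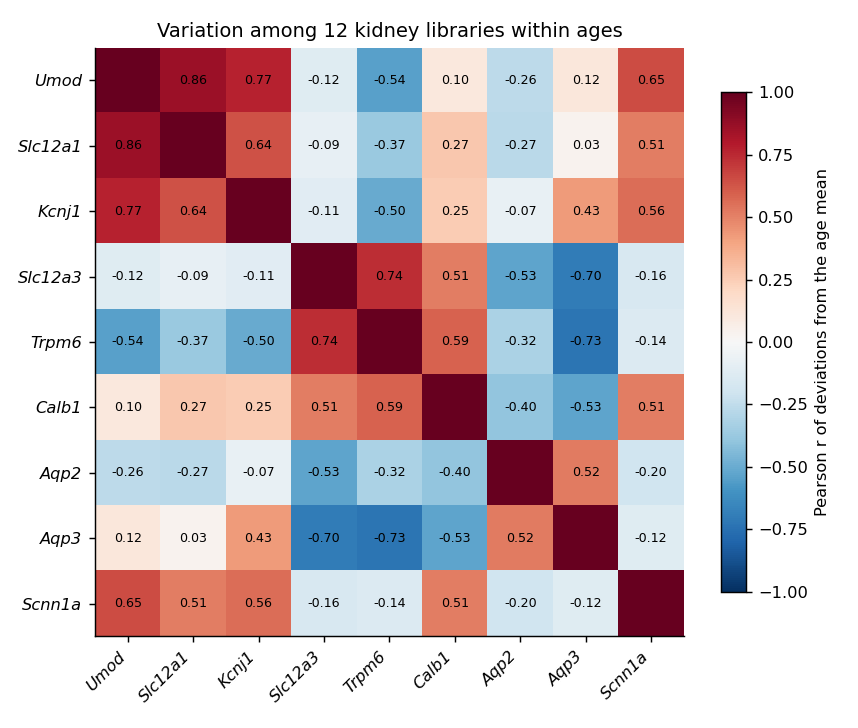
Pearson r between 9 genes over the 12 kidney libraries, after the mean of each age was removed from log2 CPM, with red for positive and blue for negative values. The thick ascending limb genes (0.64 to 0.86) and the distal convoluted tubule genes (0.51 to 0.74) form blocks of positive r, and *Aqp3* is negative against *Slc12a3* and *Trpm6*.

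Single libraries among these 12 stood out for several genes. Replicate 4 at 8 weeks held the highest *Slc12a3* and *Calb1* of all 12 libraries and the lowest *Aqp2* and *Aqp3* of its age. Replicate 1 at 12 weeks held the lowest *Umod*, *Slc12a1* and *Kcnj1* of all 12 and the highest *Trpm6* and, within its age, the highest *Aqp2*. Its *Calb1*, at 414 CPM, lay below the 532 and 521 CPM of replicates 3 and 4, and its *Slc12a3*, at 1127 CPM, lay within the others of its age. In that library the brown fat list summed to 26.1 CPM, against 5.18 to 5.39 CPM in the other 3 at 12 weeks. Over the 12 libraries the mean level of that list had r = -0.56 with *Umod* and -0.76 with *Slc12a1*, and its part in their spread was not tested. *Slc12a1* also had r = -0.64 with the proximal tubule list, -0.60 with podocyte, -0.56 with heart and -0.53 with endothelial markers. With immune and liver markers it had r = 0.41 and 0.60. The brown fat sum was highest, at 54.8 CPM, in replicate 2 at 8 weeks, where *Umod* and *Slc12a1* lay within the other libraries of that age.

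Among 10873 other genes with a mean of at least 5 CPM, those most like *Umod* by the same measure were *Ndufs4* (r = 0.93), *Ppp1r1a* (0.90), *Cnbp* (0.90), *Lsm10* (0.90) and *Slx1b* (0.88). *Ppp1r1a*, a phosphatase inhibitor, was also in the loop of Henle list. Those most like *Slc12a3* were *Gm64132* (0.95), a noncoding gene that overlaps it on the opposite strand without shared exon bases, *Luc7l2* (0.87), *Herc6* (0.87), *Slc27a1* (0.87) and *Dapk1* (0.87). Those most like *Aqp2* were *Epb41l4a* (0.95), *Iffo2* (0.89), *Agfg2* (0.88), *Ppil1* (0.88) and *Elf3* (0.87).

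Heart and liver were set beside the kidney to see where else the genes are expressed. Libraries of different tissues were treated as independent, although some may come from the same mouse. In the model of all 36 libraries, all 9 genes tested were called higher in kidney than in heart and than in liver. Of 19716 genes, 47.1% and 46% were called higher in kidney. Only *Slc12a3* and *Scnn1a* passed the filter within heart or liver. The others entered through their kidney counts, so their calls were fixed in advance and add no support. *Umod* and *Aqp2* had no unstranded pair in the 12 liver libraries, which allows up to 0.00935 CPM over the group (3 counts, without TMM scaling). Their kidney means were 2056.5 and 82.0 CPM. This limit covers counting error only, and no fold is drawn from it because the scaling differs between the tissues. In heart, *Umod* had 5 pairs over 12 libraries, *Slc12a1* 6, *Kcnj1* 4, *Calb1* 6, *Aqp2* 6 and *Aqp3* 4. In liver, *Slc12a1* had 2 pairs, *Kcnj1* 1, *Calb1* 5 and *Aqp3* 7.

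Low but recurring counts outside the kidney were found for *Slc12a3* and *Trpm6*. *Slc12a3* had 140 pairs in heart (0.194 to 1.27 CPM) and 99 in liver (0.0405 to 0.764 CPM), with pairs in every library of both. On the log2 scale of the joint model it stood 10.67 ± 0.17 higher in kidney than in heart and 11.05 ± 0.18 higher than in liver. *Trpm6* had 40 pairs in heart (0 to 0.310 CPM) and 64 in liver (0 to 0.639 CPM), with pairs in 11 of the 12 libraries of each. It did not pass the filter within heart or liver, so no fold from the joint model is given for it. *Avpr2* in the summed strand columns had a median of 0.251 CPM in heart and 0.824 CPM in liver, against 17.4 CPM in kidney, and outside the kidney its shared exon bases were no denser than the exons of *Arhgap4* alone.

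*Scnn1a* was the exception, with 9048 unstranded pairs in liver and 148 in heart. Liver libraries held 37.9, 36.1, 30.8 and 28.1 CPM at 8 weeks, 21.7, 17.3, 30.4 and 22.004 CPM at 10 weeks and 23.1, 31.8, 32.7 and 30.8 CPM at 12 weeks. In the model of all 36 libraries, the kidney was 1.56 ± 0.09 higher than liver on the log2 scale (95% interval 1.38 to 1.73). It was 7.70 ± 0.13 higher than heart (7.43 to 7.97). All liver libraries lay below all kidney libraries and above all heart libraries, whose highest value was 0.820 CPM.

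**Figure D5:**
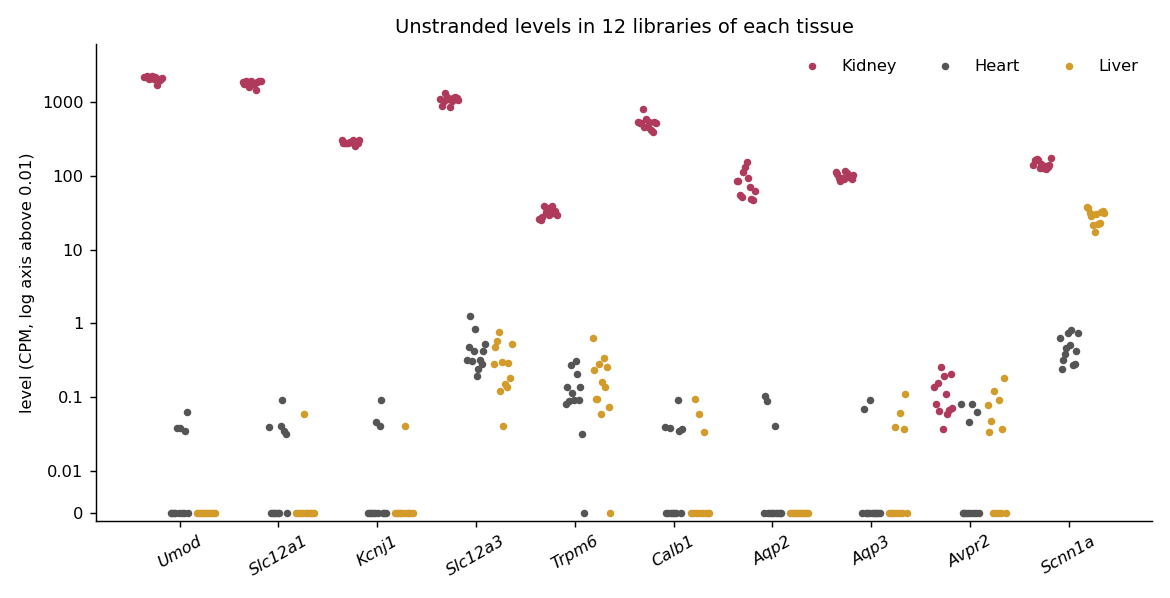
Levels in CPM (unstranded counts, log axis above 0.01 CPM, 0 drawn at the base) of the 10 genes in the 12 libraries of each tissue, 1 point per library. Kidney lies above heart and liver for the 9 genes tested, least so for *Scnn1a*, whose liver libraries span 17.3 to 37.9 CPM, and *Avpr2* stays at or under 0.261 CPM in all 3 tissues in this count.

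With age, no gene of the 10 was called in heart or liver by edgeR, DESeq2 or limma-voom. In heart *Slc12a3* and *Scnn1a* passed the filter, where 4.56% of genes were called at 12 against 8 weeks, 1.06% at 10 against 8 weeks and 0.0396% at 12 against 10 weeks. In liver the same 2 genes passed it, where 0.239%, 0.0204% and 0.0545% of genes were called in the same comparisons. At an unadjusted p under 0.05, both passed in liver at 10 against 8 weeks, against 14.3% of genes, and *Scnn1a* at 12 against 10 weeks, against 14.1%. *Scnn1a* in liver changed by -0.54 ± 0.17 from 8 to 10 weeks (95% interval -0.90 to -0.18, edgeR adjusted p = 0.186) and by 0.37 ± 0.17 from 10 to 12 weeks (adjusted p = 0.333). Its change from 8 to 12 weeks differed between kidney and liver by -0.01 ± 0.21 (95% interval -0.43 to 0.41, adjusted p = 1.00, where 0.304% of genes were called).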

How the data were processed

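Polyadenylated RNA of 36 libraries was sequenced as paired reads. Per the labels and the study's methods, the authors trimmed reads with cutadapt 4.2 after FastQC 0.11.9 and aligned them with STAR 2.7.11b to GRCm39 with Ensembl annotation. The deposited values are raw read pair counts per gene, unstranded and for each strand. The members and gene lists were chosen with earlier results of these data known.

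The unstranded counts of each tissue were filtered as in the study (at least 2 libraries above 0 and a mean of at least 10 in some age group), scaled by TMM and tested with edgeR 4.0.16 (quasi-likelihood, R 4.3.3) with 1 coefficient per age and Benjamini-Hochberg adjustment. Tissues, and their changes with age, were compared in a model of all 36 libraries that treats libraries of different tissues as independent. The fit was tested on simulated data. Genes named besides the members were those of the lists called in kidney (at most 6 per comparison) and the 5 most similar to *Umod*, *Slc12a3* and *Aqp2*; others are marked in the text. Same-numbered libraries did not deviate together across ages and were not paired. Exon overlaps and lengths came from a later GENCODE release on GRCm39. Summing both strand columns was chosen after seeing the data. Alternatives were DESeq2 1.42.0, limma-voom 3.58.1, other scaling, filters and columns, 2 ages only, a replicate block and leaving out each library. P-values measure the spread between these libraries. Per the study's methods, mice shared cages and were grouped by age at sacrifice. No label of these libraries names the cage or the day of collection, so neither can be told apart from age.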

Additional observations from a re-analysis of the deposited data

Results flagged for a closer look

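In 3 kidney groups of 4 libraries, 1 library stood apart from the rest of its group by Dixon's criterion, out of 37 groups examined, and chance alone gives about 1 in 20. *Slc12a1* had 1422 CPM in replicate 1 at 12 weeks, against 1846 to 1908 CPM in the other libraries of that age. *Trpm6* had 38.3 CPM in replicate 4 at 8 weeks, against 25.4 to 27.3 CPM. *Calb1* had 787 CPM in the same replicate 4 at 8 weeks, against 511.5 to 535 CPM.

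*Avpr2* had a median of 17.4 CPM (11.9 to 33.6) over the 12 kidney libraries in the summed strand columns, which the unstranded comparisons do not use, and its pairs there cannot be told from those of *Arhgap4*.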

How the results depend on the processing

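The call of *Aqp2* at 12 against 10 weeks held with DESeq2, limma-voom, RLE factors, both other filters, the first strand column, the 2 ages alone, the summed strand columns and the replicate block (log2 change -1.10, adjusted p = 0.0440), and its direction held in all alternatives run. With 1 library left out the number of the 10 genes called ran from 0 to 1 in that comparison, from 0 to 1 at 10 against 8 weeks and from 0 to 1 for any age difference. Of the 10 genes, 1 was called with no filter on low counts at 12 against 8 weeks (1.22% of all genes). At 10 against 8 weeks it was 1 with DESeq2 (4.08%) and 2 with no filter (2.39%). For any age difference it was 2 with no filter, 0 with the first strand column and 0 with both strand columns summed (1.19% of all genes). The share of all genes called for any age difference was not counted with no filter, the first strand column or a library left out. Those counts therefore have no background to be read against.

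In the gene lists at 12 against 8 weeks, 1 gene was called with DESeq2 (0.737% of all genes) and 7 with no filter (1.22%). At 10 against 8 weeks it was 6 with DESeq2 (4.08%), 2 with RLE factors (0.975%), 15 with no filter (2.39%) and 2 with filterByExpr (0.953%). It was 0 with the replicate block, the first strand column or the 2 ages alone, and 0 to 4 with 1 library left out. At 12 against 10 weeks it was 6 with DESeq2 (4.98%), 11 with no filter (2.23%) and 0 to 3 with 1 library left out. *Gata3* at 10 against 8 weeks had an adjusted p of 0.0533 with the replicate block and 0.0560 with limma-voom, where the count over the lists stayed at 1. The cause of these shifts was not tested.

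Over all genes, 10, 164 and 85 were called at 12 against 8, 10 against 8 and 12 against 10 weeks, against 130, 664 and 657 with DESeq2 and 513, 1005 and 938 with no filter. With the 2 ages alone they were 9, 117 and 24, with the replicate block 4, 189 and 97, with both strand columns summed 14, 257 and 178, and with 1 library left out 4 to 30, 23 to 334 and 26 to 397.

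Changes of sign were found only among log2 changes that were not called. That of *Umod* at 10 against 8 weeks became 0.0187 with the first strand column, 0.000373 with the 2 ages alone and 0.0131 with both strand columns summed, and ran from -0.0230 to 0.0184 with 1 library left out. With 1 library left out, *Slc12a1* ran from -0.0717 to 0.0598 at 12 against 8 weeks and from -0.0189 to 0.113 at 12 against 10 weeks. *Kcnj1* ran from -0.0828 to 0.0162 and *Slc12a3* from -0.0269 to 0.176 at 12 against 8 weeks, and *Slc12a3* from -0.146 to 0.0572 at 10 against 8 weeks. *Aqp3* ran from -0.0995 to 0.0262, from -0.0397 to 0.0859 and from -0.113 to 0.00231 at 12 against 8, 10 against 8 and 12 against 10 weeks. *Trpm6* ran from -0.0776 to 0.0659 and *Scnn1a* from -0.0357 to 0.141 at 12 against 10 weeks. *Akr1b3* ran from -0.199 to 0.259 and *Aqp4* from -0.110 to 0.375 at 12 against 8 weeks.

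Of 36 same-numbered pairs across ages, 9 correlated above 0.1 (median 0.0185). Across tissues, 11 of 12 same-numbered kidney and liver libraries did (median 0.194). It was 6 of 12 for kidney and heart (median 0.119) and 4 of 12 for heart and liver (median 0.0725). Libraries of different numbers had medians of -0.0595, -0.0448 and -0.0352 in the same order. The study collected kidney, liver and heart from its mice, and library numbers recur across the tissues, but no label names the animal.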
